A study of Curvularia clavata with 15 samples.

Results

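Among the genes of the filamentous fungus Curvularia clavata, 56 were lower without CclaeA and also lower without rpn-4 when mycelia grew on lignosulfonate, a water-soluble sulfonated lignin. They are 56 of the 10170 gene IDs measured by RNA-seq. The members were chosen by their measured values. The FPKM of each library (fragment counts corrected for transcript length and for the library's total) was divided by the library's median-of-ratios size factor, giving the scaled FPKM used throughout. Group means were then compared as log2(mean scaled FPKM + 1). A gene was kept when its difference from the wild type (WT) on lignosulfonate was at most -1 in the ΔCclaeA mutant and at most -1 in the Δrpn-4 mutant, and under 1 in the Δtah-1 mutant. Genes with at least 10 FPKM in all 3 libraries of one WT medium and under 1 FPKM in all 3 of the other were left out. In all 694 IDs met the limit in ΔCclaeA, 316 met it in Δrpn-4 and 87 met it in both. Of these 87, 24 were removed because they were raised in Δtah-1, and another 7 because they were switched between the WT media.

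The series compared mycelia of strain J1 in 5 groups of 3 libraries. WT was grown in Vogel's minimal medium with 2% glucose, or with 2% lignosulfonate and 0.25% glucose. The ΔCclaeA, Δrpn-4 and Δtah-1 deletion mutants were grown in the lignosulfonate medium. All cultures were shaken at 30 °C for 4 days, and no age, further allele or agent is given in the labels. The labels give neither the number of isolates behind each mutant nor the origin of replicate libraries from separate cultures. The p-values below therefore measure only the spread between these libraries, which may be technical. No double mutant is among the groups, so whether CclaeA and rpn-4 act on these genes together cannot be read from them.

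LaeA was first described in Aspergillus as a nuclear protein with a methyltransferase-like domain that works with velvet proteins, and it is known as a regulator of secondary metabolite gene clusters and of development. In budding yeast, Rpn4 activates proteasome subunit genes and stress genes as a transcription factor, and is itself degraded by the proteasome. Genes for secondary metabolites often lie side by side in fungal genomes. The gene IDs were not matched to names or products in any source used here, so the roles of the 56 genes are not given and the 3 deleted genes were not looked up among the IDs.

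Size factors were lowest in the 3 Δrpn-4 libraries, at 0.683 to 0.696, and highest in WT on lignosulfonate replicate 1. They differed within Δtah-1, where replicate 2 had 1.21 and replicates 1 and 3 had 0.807 and 0.870. FPKM measures a share of the RNA in a library, so less RNA per cell and fewer active cells cannot be told apart. The headers name FPKM as the unit for WT and no unit for the mutants. Any comparison between a mutant and WT therefore also crosses these header types, and what part that has in the results was not tested.

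The values that chose the genes are described here without a test. In ΔCclaeA the log2 difference from WT ran from -3.88 to -1.02 over the 56 genes, with a median of -1.58. In Δrpn-4 it ran from -3.31 to -1.004, with a median of -1.26. With scaled values the falls in Δrpn-4 lay closer to the limit: 10 genes were at or below -1.5 in Δrpn-4 and 31 in ΔCclaeA. This order of the mutants turned with the scaling: the fitted log2 differences of the 55 tested genes had medians of -1.56 in ΔCclaeA and -1.27 in Δrpn-4 with scaled values, -1.68 and -2.02 with FPKM as deposited, and -1.58 and -2.18 with TPM, which is FPKM rescaled to equal library sums. In Δtah-1, where the rule set an upper limit only, the difference ran from -3.44 to 0.97 with a median of -0.63.

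**Figure D1:**
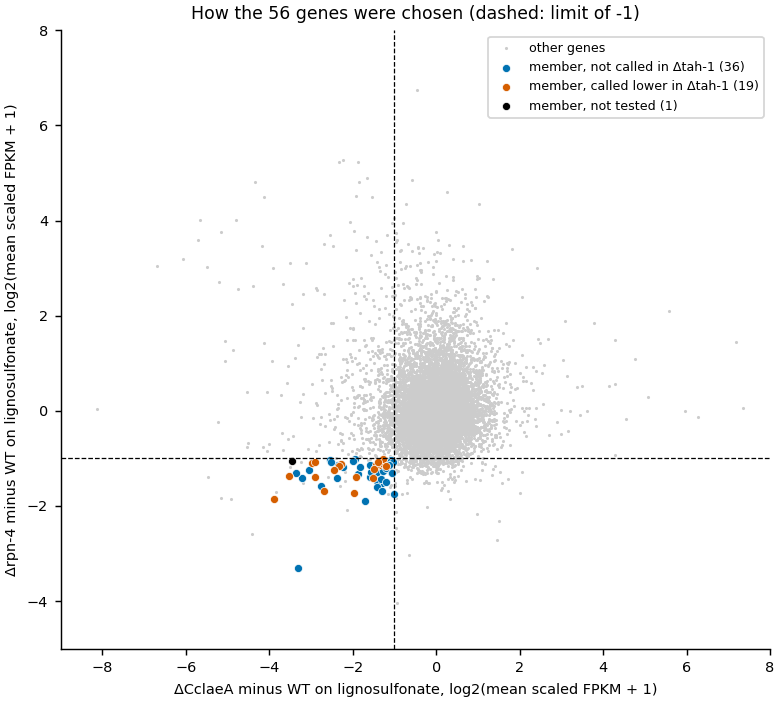
Each point is a gene ID. The x axis is ΔCclaeA minus WT and the y axis Δrpn-4 minus WT, both on lignosulfonate as differences in log2(mean scaled FPKM + 1), and both use the same 3 WT libraries. Coloured points are the 56 genes, which lie left of and below the dashed limits of -1, most of them within 1 unit of the limit in Δrpn-4.

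By their log2 differences alone, the genes at the limit lay close to those just past it. The members nearest to it were yc1106_05152 and yc1106_08627, at -1.004 and -1.01 in Δrpn-4. The nearest genes outside it were yc1106_07291, at -0.98 in Δrpn-4, and yc1106_00429, at -0.97 in ΔCclaeA. yc1106_07291 had a mean of 2.25 scaled FPKM in WT on lignosulfonate, where adding 1 understates a change. Its WT mean was 3.48 times that in Δrpn-4, against 2.04 times for yc1106_05152, which had 52.4 in WT. yc1106_00429 varied between libraries, with 3.88, 11.8 and 4.55 in WT on lignosulfonate and 0, 3.50 and 0 in Δrpn-4. At the limit set for Δtah-1, yc1106_02126 and yc1106_07802 were inside at 0.97 and 0.90, and yc1106_02779 and yc1106_07945 were outside, each at 1.01. These 4 IDs were named after their values were seen.

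Most of the 56 genes were lowered and not silenced. In WT on lignosulfonate their median level was 47.0 scaled FPKM (range 1.40 to 419), against 30.7 over all 9265 tested genes. The median was 14.0 in ΔCclaeA and 18.6 in Δrpn-4, while all tested genes had medians of 31.2 and 30.5. In ΔCclaeA 33 of the 56 still had a mean of at least 10 scaled FPKM, and in Δrpn-4 39 did. A mean under 1 was found for 9 genes in ΔCclaeA, for 3 in Δrpn-4 and for 3 in both. A reading of the 56 as genes that need CclaeA and rpn-4 to be expressed at all therefore goes beyond these values. Together the genes held 0.640% ± 0.0329 (SD, n = 3) of the FPKM sum in WT on lignosulfonate, 0.179% ± 0.00425 in ΔCclaeA, 0.128% ± 0.00415 in Δrpn-4, 0.489% ± 0.0841 in Δtah-1 and 0.306% ± 0.0259 in WT on glucose. These shares use unscaled FPKM, where Δrpn-4 is lowest, unlike in the scaled medians above. With TPM, which has the same shares, the median log2 difference of all tested genes from WT on lignosulfonate was -0.93 in Δrpn-4. In ΔCclaeA it was 0.01. The shares therefore do not rank these mutants.

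A minimum of 1 FPKM in 3 or more libraries was required for the limma fit, and a gene was called at an adjusted p under 0.05 with a change of at least 2-fold. The fit took in 55 of the 56 genes. Against WT on lignosulfonate, 50 of the 55 were called lower in ΔCclaeA, where 7.08% of all tested genes were, and 52 in Δrpn-4, where 3.21% were. Since these contrasts chose the genes, nothing is read from the counts. They do show that 50 genes passed in both mutants and that 6 did not.

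Those 6 rest on few libraries or on a wide spread in WT. yc1106_01901, which was not tested, had 29.6, 0 and 0 scaled FPKM in the WT lignosulfonate libraries, was listed at 0 in ΔCclaeA, and had 0, 0 and 12.7 in Δrpn-4. yc1106_01962, which has the largest summed fall of the 56, had 0, 20.9 and 5.80 in WT on lignosulfonate and was listed at 0 in all 6 libraries of both mutants. It also had 0, 23.6 and 0 in WT on glucose and 27.8, 0 and 0 in Δtah-1. A gene that appears and disappears between libraries of 1 group cannot be called lower from these values.

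The other members of the 6 were yc1106_05767, with 0, 0 and 4.20 in WT on lignosulfonate and 0 in all mutant libraries, yc1106_01135, yc1106_09617 and yc1106_09640. In the last 3, WT replicate 3 was below replicates 1 and 2. For yc1106_09617 the WT values were 51.0, 55.6 and 18.0 scaled FPKM, against 18.5, 19.4 and 17.3 in ΔCclaeA. Replicate 3 of WT therefore overlapped the mutant libraries. This gene missed only the 2-fold limit, at -0.98 in ΔCclaeA and -0.99 in Δrpn-4 (limma adjusted p = 0.044 and 0.0392). yc1106_09640 missed only that limit in ΔCclaeA, at -0.996 (limma adjusted p = 0.0391), and was called lower in Δrpn-4, at -1.27. yc1106_01135 was called lower in Δrpn-4, at -2.10, but not in ΔCclaeA (-1.55, limma adjusted p = 0.143). These 6 were named because they failed the call in ΔCclaeA or in both mutants, after their values were seen.

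**Figure D2:**
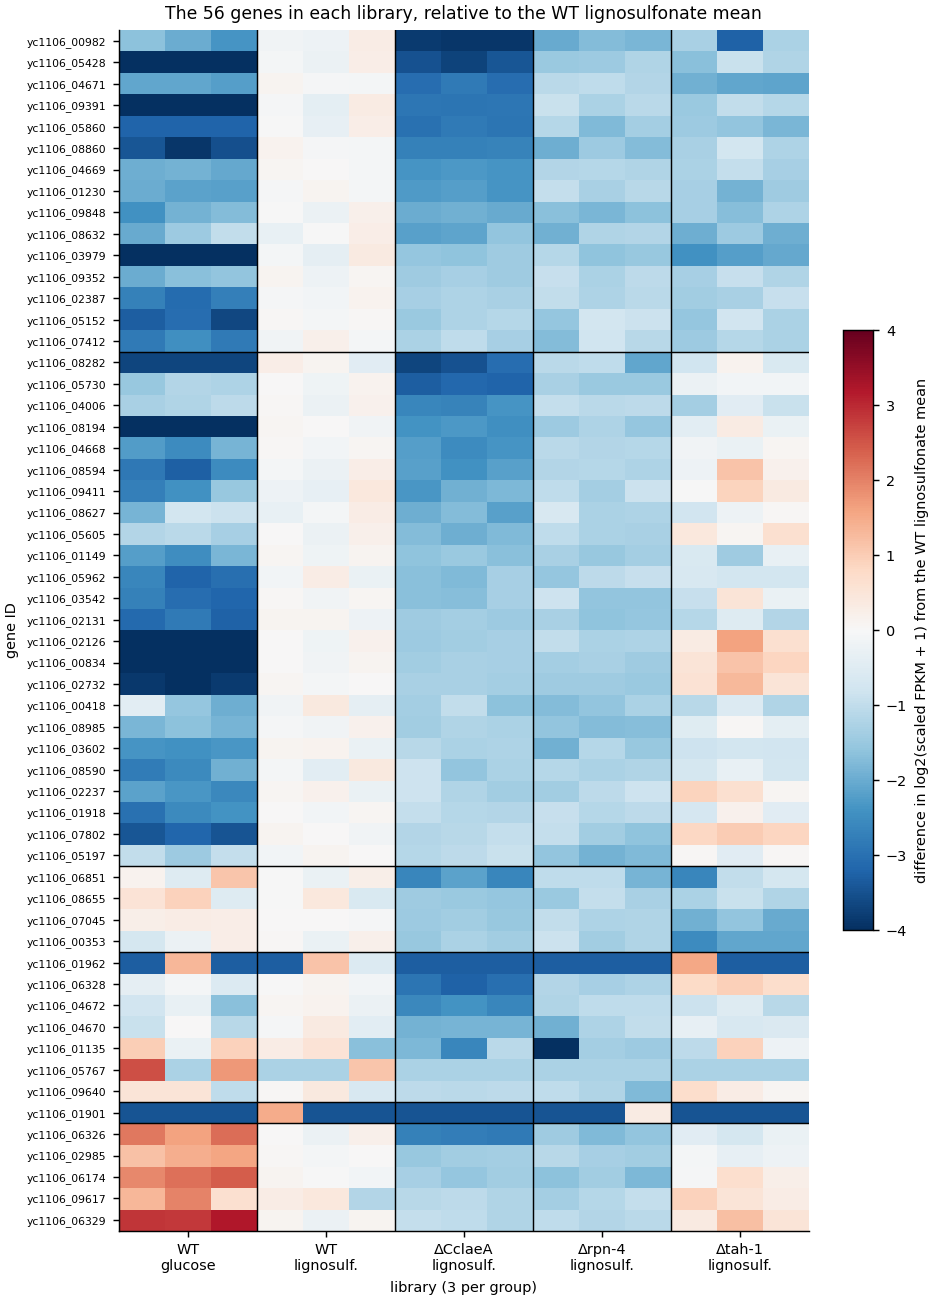
Rows are the 56 genes and columns the 15 libraries, 3 per group. Colour is log2(scaled FPKM + 1) minus log2(mean scaled FPKM + 1) of WT on lignosulfonate, and the colour scale ends at -4 and 4. Horizontal lines separate, from the top, genes called higher on lignosulfonate than on glucose in WT (15 called lower in Δtah-1, then 24 not called), genes not called between the media (4, then 7), the gene not tested, and 5 genes called lower on lignosulfonate. Both mutant columns are blue throughout, by choice of the genes, except replicate 3 of Δrpn-4 in yc1106_01901.

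How the WT responds to the medium was used by the rule only to leave out switched genes. In WT, 39 of the 55 tested genes (70.9%) were called higher on lignosulfonate than on glucose, where 22.7% of all tested genes were. Another 5 were called lower, where 18.1% of all tested genes were, and 11 were not called. The median log2 fold change of the 55 was 2.01, against 0.00 over all tested genes. The WT lignosulfonate libraries enter this contrast and also chose the genes by being high, which favours higher calls, so the counts describe the genes and test nothing about them as a list. Lignosulfonate and the lower glucose differ together between the media and cannot be told apart.

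The 39 genes called higher had a median of 5.10 scaled FPKM on glucose and 52.4 on lignosulfonate in WT, and 13.4 in ΔCclaeA and 21.2 in Δrpn-4, with 29.6 in Δtah-1. The largest rise was that of yc1106_03979, with 2.61, 2.80 and 3.97 scaled FPKM in the glucose libraries and 248, 202 and 330 in the lignosulfonate libraries. Its log2 fold change was 5.97 (SE 0.18, limma adjusted p = 6.03e-13). In ΔCclaeA it had 89.0, 84.3 and 95.6, and in Δrpn-4 118, 84.1 and 91.1. Both mutants thus lay between the WT media without overlap, about equally far below WT on lignosulfonate. In Δtah-1 it was lower again, at 47.5, 56.03 and 62.5 scaled FPKM.

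yc1106_09391 had the next largest rise, from 0.58, 0.99 and 1.10 scaled FPKM on glucose to 92.9, 72.4 and 120 on lignosulfonate. This was a log2 change of 5.65, at a limma adjusted p of 1.06e-12 and with SE 0.18. Here the mutants separated. ΔCclaeA had 11.9, 11.7 and 11.8 scaled FPKM, while Δrpn-4 had 50.9, 39.1 and 44.2 and Δtah-1 33.4, 48.1 and 42.9. The ΔCclaeA libraries were the lowest of those grown on lignosulfonate, and Δrpn-4 and Δtah-1 overlapped. The log2 difference of ΔCclaeA from Δrpn-4 was -1.83 (SE 0.18, limma adjusted p = 1.06e-06), but with TPM it was -0.84 and was not called.

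Among the most abundant genes, yc1106_02131 had 415, 414 and 334 scaled FPKM in WT on lignosulfonate and 44.3, 53.8 and 40.1 on glucose. The rise was 3.05 on the log2 scale, with SE 0.17 and a limma adjusted p of 6.35e-10. The gene had 143, 150 and 141 in ΔCclaeA and 158, 128 and 131 in Δrpn-4, which overlapped each other and lay between the media. yc1106_04669, the most abundant in WT on lignosulfonate with a mean of 419 ± 23.3 (SD, n = 3), belongs to a run of neighbouring IDs described further on.

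The 5 genes called lower on lignosulfonate ran against the direction that the choice of the genes favours. Their median was 158 scaled FPKM on glucose, 48.1 on lignosulfonate in WT and 18.4 in both ΔCclaeA and Δrpn-4. The rule required a fall in both mutants, so for such genes a mutant level further from glucose is set by the choice. yc1106_06329 had 738, 726 and 935 scaled FPKM on glucose and 108, 86.2 and 108 on lignosulfonate in WT, a log2 change of -2.97 with SE 0.19 and a limma adjusted p of 2.21e-09. It had 51.7, 49.6 and 43.6 in ΔCclaeA and 49.7, 44.1 and 47.5 in Δrpn-4, below every WT library. yc1106_06174 went from 186, 223 and 263 on glucose to 52.4, 47.0 and 44.8 on lignosulfonate, a log2 change of -2.18 with SE 0.18 and a limma adjusted p of 4.33e-08. Its mutant values were 18.6, 15.7 and 17.8 in ΔCclaeA and 14.8, 17.7 and 12.99 in Δrpn-4. The remaining 3 were yc1106_06326, yc1106_02985 and yc1106_09617, the last of which is among the 6 that failed the call in the mutants.

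**Figure D3:**
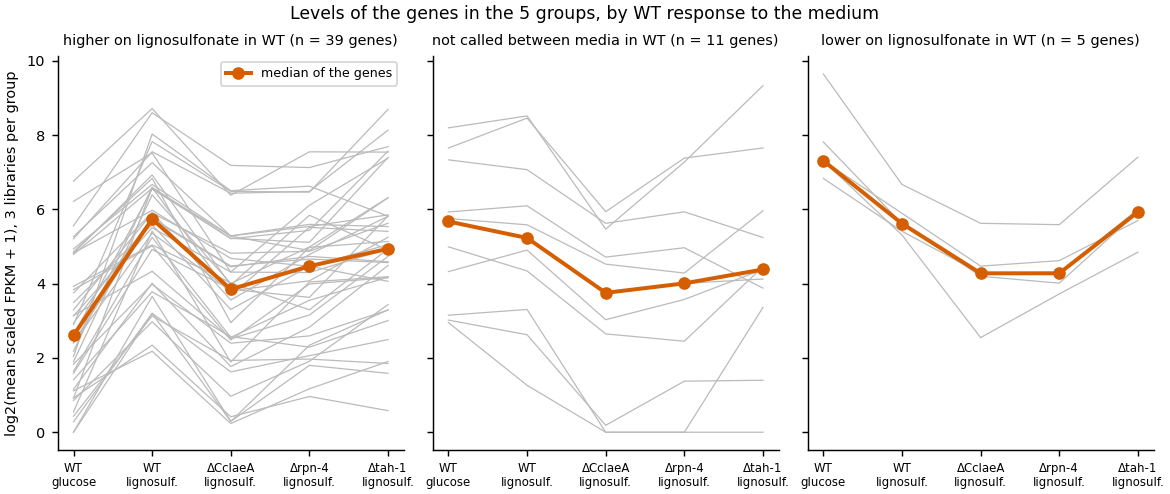
Each grey line is a gene, drawn through its log2(mean scaled FPKM + 1) in the 5 groups (3 libraries each). The orange line is the median over the genes of a panel. The panels split the tested genes by the WT call between the media: 39 higher on lignosulfonate, 11 not called and 5 lower. The median drops from WT on lignosulfonate to both mutants in every panel, as the choice of genes requires. In both mutants it lies above the glucose level in the left panel and below it in the others. For the right panel this follows from that choice too.

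The mutants on lignosulfonate were then set against WT on glucose, which the rule did not use as a reference. The mutant libraries chose the genes by being low, which favours lower calls here. In ΔCclaeA 18 of the 55 genes were called higher than in WT on glucose and 18 lower, where 21.2% and 19.1% of all tested genes were. The median log2 difference was 0.04. In Δrpn-4 24 were called higher and 11 lower, where 25.5% and 19.1% of all tested genes were, with a median of 0.78. Which mutant had the larger median turned with the scaling. As deposited both medians were 0.11, and with TPM they were 0.37 in ΔCclaeA and 0.15 in Δrpn-4. On these scales ΔCclaeA had 19 calls up and 18 down, then 19 and 15. Δrpn-4 had 17 and 15 on both. Measured from the median of all tested genes, ΔCclaeA lay at -0.02, -0.02 and -0.06 (scaled, deposited, TPM). Δrpn-4 lay at 0.74, 0.68 and 0.68.

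Of the 39 genes raised on lignosulfonate in WT, 18 were still called higher in ΔCclaeA than in WT on glucose, 18 were not called and 3 were called lower. In Δrpn-4 24 of the 39 were still called higher and 15 were not called, with none lower. As deposited and with TPM, 17 of these 24 calls in Δrpn-4 were left, and all 18 in ΔCclaeA. No matching share over all tested genes raised on lignosulfonate was taken, so these counts only describe the genes. A gene that kept much of its rise was yc1106_00834, with 5.94, 5.99 and 7.38 scaled FPKM in WT on glucose and 230, 204 and 244 on lignosulfonate. It had 86.2, 90.5 and 89.1 in ΔCclaeA (log2 difference from glucose 3.60, SE 0.14, limma adjusted p = 8.49e-12) and 87.7, 90.7 and 83.4 in Δrpn-4 (3.57, SE 0.14, limma adjusted p = 7.94e-12). yc1106_03979 and yc1106_09391 also stayed high in Δrpn-4, with log2 differences from glucose of 4.58 and 4.60 (SE 0.18 each, limma adjusted p = 1.08e-11 and 9.7e-12). In ΔCclaeA they were 4.47 and 2.77 above glucose (SE 0.18 each, limma adjusted p = 1.65e-11 and 4.01e-09).

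The lowest against glucose in ΔCclaeA was yc1106_06326, with 168, 120 and 184 scaled FPKM in WT on glucose, 39.1, 32.6 and 44.2 in WT on lignosulfonate and 5.13, 4.83 and 4.57 in ΔCclaeA. Its log2 difference from glucose was -4.74 in ΔCclaeA (SE 0.17, limma adjusted p = 3.67e-12) and -3.57 in Δrpn-4 (SE 0.17, limma adjusted p = 8.25e-11), where it had 13.7, 10.6 and 12.3 scaled FPKM. yc1106_06329 and yc1106_06174 were the lowest in Δrpn-4, at -4.05 and -3.80 (SE 0.19 and 0.18, limma adjusted p = 5.08e-11 and 6.3e-11). Of the 11 genes not called between the WT media, 10 were called lower than on glucose in ΔCclaeA and 6 in Δrpn-4. Here too no share over all genes not called between the media was taken.

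**Figure D4:**
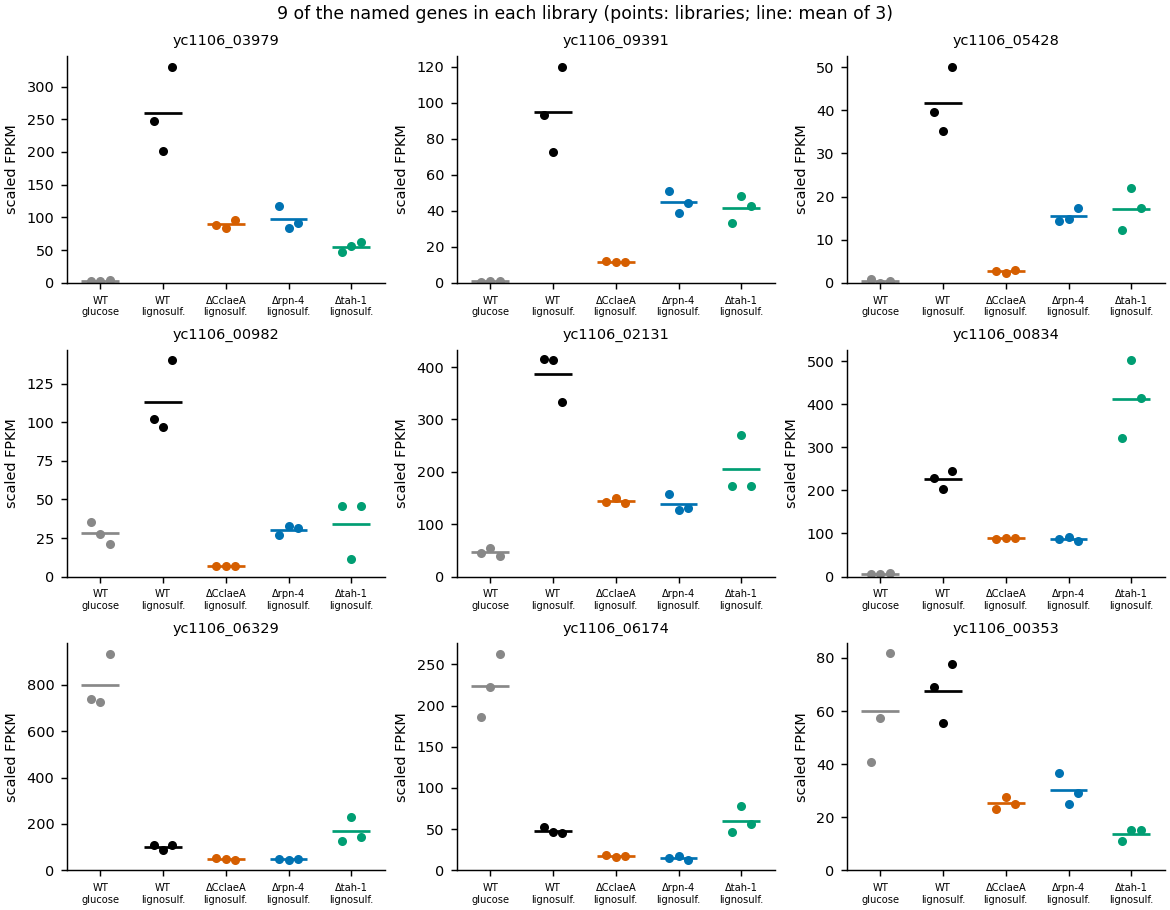
Scaled FPKM of 9 of the named genes in each of the 15 libraries, on a linear axis from 0, with points for libraries and a line for the mean of 3. The top row and yc1106_02131 and yc1106_00834 show genes raised on lignosulfonate whose ΔCclaeA and Δrpn-4 libraries lie between the WT media. In yc1106_00982 the ΔCclaeA libraries lie below the glucose libraries, in yc1106_06329 and yc1106_06174 both mutants lie below both WT media, and in yc1106_00353 the lowest libraries are those of Δtah-1.

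The direct contrast of ΔCclaeA with Δrpn-4 holds no WT library, but it uses the mutant libraries that chose the genes. Since every gene was at or below -1 in both mutants, a 2-fold difference needs a fall to about -2 in one of them, which 21 genes had in ΔCclaeA and 1 had in Δrpn-4. The counts are therefore partly set by the choice of the genes and are given as a description. With scaled values, 16 of the 55 genes were called lower in ΔCclaeA than in Δrpn-4, where 14.5% of all tested genes were, and 0 were called higher by limma, where 7.62% were. At an unadjusted p under 0.05, 2 were higher and 23 lower in ΔCclaeA. The median log2 difference of the 55 was -0.25. By group means, the fall was larger in ΔCclaeA for 41 of the 56 genes and larger in Δrpn-4 for 13.

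This balance depended on the scaling. With FPKM as deposited 8 genes were lower and 2 higher in ΔCclaeA, and with TPM 4 were lower and 11 higher. The median of all tested genes moved with it, from 0.00 to 0.67 as deposited and 0.92 with TPM. Measured from that median, the median of the 55 genes lay at -0.24, -0.24 and -0.21.

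The genes with the largest difference between the mutants kept their call under all 3 scalings. yc1106_05428 had 39.7, 35.2 and 50.1 scaled FPKM in WT on lignosulfonate, 2.83, 2.28 and 3.01 in ΔCclaeA and 14.4, 14.7 and 17.4 in Δrpn-4. The log2 difference between the mutants was -2.16 (SE 0.24, limma adjusted p = 3.09e-06), -1.497 as deposited and -1.27 with TPM. On glucose it was near 0 in WT, at 1.01, 0 and 0.37. yc1106_00982 had 102, 97.1 and 140 scaled FPKM in WT on lignosulfonate, 6.95, 6.62 and 6.63 in ΔCclaeA and 27.1, 33.0 and 31.3 in Δrpn-4. Its difference between the mutants was -2.02 (SE 0.39, limma adjusted p = 0.000453), -1.31 as deposited and -1.06 with TPM. In Δrpn-4 it overlapped WT on glucose, which had 35.3, 27.6 and 21.1, whereas ΔCclaeA lay below glucose (log2 difference -1.88, SE 0.39, limma adjusted p = 0.000518). In contrast, yc1106_00834, yc1106_03979 and yc1106_06329 differed by 0.02, -0.11 and 0.03 between the mutants (SE 0.14, 0.18 and 0.19), with overlapping libraries. With TPM yc1106_00834 and yc1106_06329 were called higher in ΔCclaeA, each by 1.05, and yc1106_03979 was at 0.92 and not called.

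The genes differed among themselves in Δtah-1, within the limit the rule had set. The WT libraries of this contrast also chose the genes by being high, which favours lower calls, so its counts are a description. Of the 55, 19 were called lower in Δtah-1 than in WT on lignosulfonate, where 8.79% of all tested genes were, and 0 were called higher by limma, where 12.5% were and where the rule had removed genes past 2-fold. At an unadjusted p under 0.05, 8 were higher and 28 lower. The 19 genes had a median of 53.4 scaled FPKM in WT, 22.7 in Δtah-1, 12.5 in ΔCclaeA and 25.6 in Δrpn-4. The 36 genes not called had 43.0 in WT and 42.7 in Δtah-1, beside 15.1 in ΔCclaeA and 17.1 in Δrpn-4. The call in Δtah-1 made this split, so the Δtah-1 levels of the 19 and the 36 differ by it. The log2 differences of the 36 in Δtah-1 ran from -1.26 to 0.97, so their near-equal medians do not mean that each was unchanged. Of the 19, 15 were among the genes raised on lignosulfonate in WT and 4 were not called between the media. Of the 36, 24 were raised, and of all 55 tested genes 70.9% were. No link between the responses to the medium and to the loss of tah-1 is read from these counts.

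The largest falls in Δtah-1 were those of yc1106_00353 and yc1106_03979. yc1106_00353 had 69.1, 55.5 and 77.6 scaled FPKM in WT on lignosulfonate and 40.8, 57.3 and 81.9 on glucose, which overlapped. It had 10.9, 15.04 and 15.2 in Δtah-1, 23.2, 27.5 and 25.1 in ΔCclaeA and 36.7, 25.2 and 29.0 in Δrpn-4. All 9 mutant libraries lay below all 6 WT libraries, with Δtah-1 the lowest. yc1106_00834 went the other way, with 322, 502 and 414 in Δtah-1, all above WT. Its log2 difference of 0.85 missed the 2-fold limit but was 1.01, and called higher, without Δtah-1 replicate 1. yc1106_02131 had 174, 270 and 172 in Δtah-1, a log2 difference of -0.94. It was -1.16 without Δtah-1 replicate 2, -1.04 without WT on lignosulfonate replicate 3 and -1.34 with FPKM as deposited, each of which was called lower. For yc1106_00982 the Δtah-1 libraries were far apart, at 45.5, 11.1 and 46.0.

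Some of the 56 genes had neighbouring ID numbers. A direct neighbour within the set was found for 7 of them (12.5%). The same was found for 185 of the 656 genes called lower in ΔCclaeA (28.2%) and 63 of the 297 called lower in Δrpn-4 (21.2%). These lists differ in size, and a longer list holds more neighbours whatever its genes, so the shares are not compared. No source used here states whether the IDs are numbered along the genome. The 7 were a run of 5 IDs and a pair.

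The run of 5 went from yc1106_04668 to yc1106_04672. Its median level was 27.2 scaled FPKM in WT on glucose, 121 in WT on lignosulfonate, 14.6 in ΔCclaeA and 56.3 in Δrpn-4, with 55.2 in Δtah-1. yc1106_04671 had 131, 118 and 114 scaled FPKM in WT on lignosulfonate, 13.8, 16.3 and 13.6 in ΔCclaeA and 56.5, 59.2 and 53.3 in Δrpn-4, with 31.4, 28.0 and 27.4 in Δtah-1. No libraries of these groups overlapped. On glucose it had 28.0, 28.2 and 25.6, above ΔCclaeA and close to Δtah-1.

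The most abundant of the run, yc1106_04669, had 441, 421 and 395 scaled FPKM in WT on lignosulfonate and 109, 113 and 101 on glucose, a log2 change of 1.95 with SE 0.11 and a limma adjusted p of 4.88e-10. It had 81.6, 84.6 and 80.7 in ΔCclaeA and 186, 190 and 183 in Δrpn-4, with 175, 215 and 165 in Δtah-1. yc1106_04668 had means of 59.5 ± 3.95 (SD, n = 3) in WT on lignosulfonate, 10.8 ± 1.28 in ΔCclaeA and 26.6 ± 0.932 in Δrpn-4, and in Δtah-1 it overlapped WT at 53.4, 49.7 and 62.6. yc1106_04672 had 350 ± 47.6, 60.3 ± 4.49 and 166 ± 13.2, and yc1106_04670 the lowest levels, 28.9 ± 8.16, 7.17 ± 0.144 and 10.9 ± 3.62.

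In WT 3 of the 5 were called higher on lignosulfonate, where 22.7% of all tested genes and 70.9% of the 55 tested members were. With FPKM as deposited 4 were, where yc1106_04672 had a log2 fold change of 1.08 in place of 0.90. The direct contrast called 4 of the 5 lower in ΔCclaeA than in Δrpn-4, where 14.5% of all tested genes and 29.1% of the 55 members were. With only 5 IDs these counts describe the run and no more. As deposited 1 of these calls was left, that of yc1106_04671, and with TPM 0 were. A run ends where an ID does not meet the rule, so the IDs on either side differ from it by definition. yc1106_04667 was lower in ΔCclaeA, at 386 ± 48.9 against 997 ± 283 in WT on lignosulfonate (SD, n = 3 each), but had 1131 ± 161 in Δrpn-4. yc1106_04673 had 102 ± 5.02 in WT, 172 ± 10.7 in ΔCclaeA and 137 ± 11.2 in Δrpn-4. These 2 flanking IDs were named after their values were seen.

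The pair was yc1106_06328 and yc1106_06329, and yc1106_06326 lies 2 numbers before it. yc1106_06328 had 361, 397 and 338 scaled FPKM in WT on lignosulfonate, 282, 343 and 251 on glucose, 47.7, 38.2 and 43.9 in ΔCclaeA and 162, 145 and 154 in Δrpn-4. The media overlapped in WT, and both mutants lay below both media. The ID between them, yc1106_06327, had 739 ± 101 scaled FPKM in WT on lignosulfonate, 23.5 ± 2.29 in ΔCclaeA and 203 ± 13.8 in Δrpn-4 (SD, n = 3 each), larger falls than those of its neighbours. It was no member because it was raised in Δtah-1, at 1919 ± 615. In Δtah-1 yc1106_06328 and yc1106_06329 were above WT by log2 differences of 0.81 and 0.69, under the 2-fold limit, while yc1106_06326 was below it by -0.46. These 4 consecutive IDs were all lower in both mutants. The members among them were chosen for this, and yc1106_06327 also met both limits, so nothing is read from it. yc1106_06327 was named after its values were seen.

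**Figure D5:**
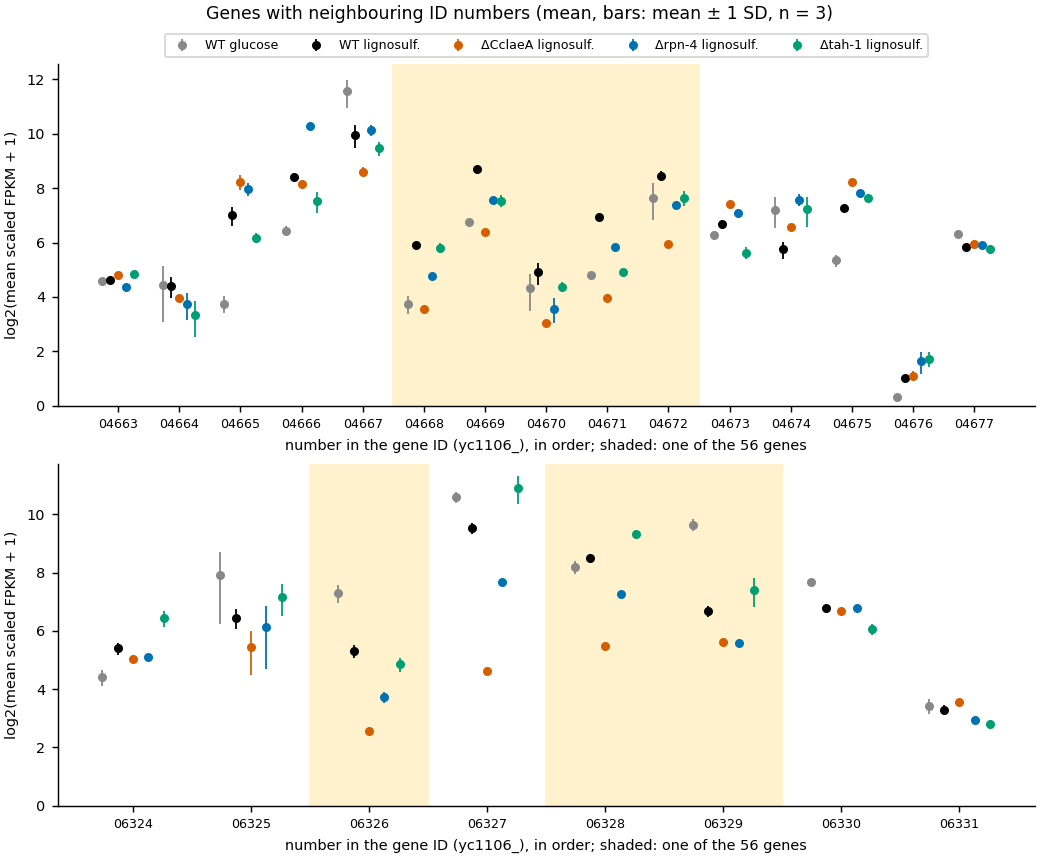
Points are log2(mean scaled FPKM + 1) in the 5 groups, for genes with neighbouring ID numbers. Bars run from the mean minus 1 SD to the mean plus 1 SD (n = 3), taken before the log. Shaded columns are among the 56 genes. In the upper panel the 5 shaded IDs have ΔCclaeA lowest and Δrpn-4 below WT on lignosulfonate. Both falls are by choice of the genes, and the IDs on either side do not meet the rule, which is what ends a run. In the lower panel yc1106_06327 shows the same order of the mutants with Δtah-1 highest.

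How firmly a gene belongs to the 56 varied. When each of the 15 libraries was left out in turn, 32 of the 56 stayed in every list. Leaving out WT on lignosulfonate replicate 3 removed 11 of them, replicate 2 removed 8, and Δrpn-4 replicate 2 removed 7. The length of the list depended on the scaling: the same rule gave 287 genes with FPKM as deposited and 245 with TPM, each holding all 56. On those scales the median of all tested genes lay at -0.79 and -0.93 in Δrpn-4 against WT on lignosulfonate, and at -0.01 with scaled values. Measured from that median, the 55 tested genes had medians of -1.24, -1.25 and -1.26. With a limit of -1.5 in both mutants 6 genes remained: yc1106_00982, yc1106_01135, yc1106_01962, yc1106_06326, yc1106_08860 and yc1106_09848. Of these, yc1106_01135 and yc1106_01962 were among those that failed the call. yc1106_08860 had 37.0 ± 2.99 scaled FPKM in WT on lignosulfonate, 4.87 ± 0.0733 in ΔCclaeA and 10.7 ± 2.12 in Δrpn-4, and yc1106_09848 had 152 ± 24.2, 37.9 ± 1.18 and 45.6 ± 3.32 (SD, n = 3 each). In WT on glucose they had 2.12 ± 0.518 and 37.5 ± 9.22. The last of these is near the level in ΔCclaeA.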

How the data were processed

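Each deposited table held 1 FPKM value per gene ID for 1 library, computed by the authors, per the file headers of the 6 WT libraries; the headers of the 9 mutant libraries name no unit. The submitters' processing notes list, with no roles, RSEM 1.3.3, HISAT2 2.1.0, DESeq2 and fastp 0.19.5; a genome build was not given in the sources used here. Read numbers are unknown from FPKM. Relative depth, estimated from the commonest ratio of values between 0.08 and 0.6 FPKM, ran from 0.774 to 1.21 of WT on lignosulfonate replicate 3.

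FPKM was divided by size factors from 8858 genes above 0 in all libraries. limma 3.58.1 (R 4.3.3; trend and robust options) was fitted on log2(scaled FPKM + 1), a scale that understates changes of low genes, to 9265 genes with 1 mean per group. Adjusted p-values are Benjamini-Hochberg over all of them. Scaled values were used because the choice of the genes rests on them. At most 1.50% of values were identical within a replicate pair. The fit was tested on simulated data. Python 3.11.15 did the rest.

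The members and lists were chosen with earlier results of these data known. Named genes were those with the largest summed fall, the highest WT level, the 2 largest called changes each way per contrast, those nearest the limit and those in runs of at least 3 IDs; others are marked in the text. Product lists were not applied, since no ID was matched to a product.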

Additional observations from a re-analysis of the deposited data

How the results depend on the processing

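The rule gave 287 genes with FPKM as deposited, 245 with TPM, 102 with a pseudocount of 0.1 and 101 with a limit of -0.8, each holding all 56, and 6 with a limit of -1.5. Between ΔCclaeA and Δrpn-4, 2 members were higher and 8 lower as deposited, 11 and 4 with TPM, and 2 were higher with no minimum fold change; the shift of all genes between scalings is given with that result. In Δtah-1, 8 members were higher than in WT with no minimum fold change, and 0 to 2 when replicates were left out. The other counts moved by less than 1.5 times under every alternative run; when replicates were left out the rule gave 53 to 62 genes.

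With the replicate number as a block (replicate block), 39 members were called higher on lignosulfonate, as without it, and no count of members changed. The numbers do not pair the libraries: same-numbered deviations correlated from -0.31 to 0.51, in 0 of 10 pairs of groups were all 3 over 0.1, and 6 of 15 libraries correlated best with their own number. Depth is unknown, so genes near 0 are the least certain.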
